A study of Mus musculus with 6 samples.

Results

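The genes described here are 10 receptors and markers of liver macrophages and of the monocytes of blood, Marco, Cd14, Cd68, Cd163, Vsig4, Timd4, Clec4f, Cd5l, Lyz2 and Csf1r, out of the 23284 genes listed in the liver count tables. They were taken by gene symbol, and the set was put together with earlier results of the same comparison known, so it was chosen by values measured in these libraries. The values of the 10 genes in FGF19 and vehicle livers are therefore given as a description. Their intervals and threshold calls come from the fit over all genes, are not independent evidence of a difference, and are given with no p-value. All 10 passed the filter on low counts.

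The data are RNA-seq of liver from C57BL/6 mice, a common inbred strain, with 3 vehicle libraries and 3 FGF19 libraries, each from 1 mouse according to the methods. All mice were 8 weeks old and were fasted overnight. They then received vehicle or FGF19 at 1 mg/kg and stayed fasted for the 6 h until the liver was taken, so the vehicle group is also a fasted group and no fed or untreated mice were compared here. FGF19 is the human form of a hormone that the ileum releases after a meal (FGF15 in mice), and the study asked what it does to gene expression in liver. The labels name no deletion or transgene in these mice.

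Kupffer cells are the resident macrophages of the liver. They sit in the sinusoids, where they clear bacteria, dying cells, haemoglobin and immune complexes from portal blood through scavenger, complement and phosphatidylserine receptors. Monocytes are their circulating relatives, which can enter the liver and become macrophages. Both depend on the CSF1 receptor, and both respond to bacterial lipopolysaccharide (LPS) through CD14 and TLR4. Whole liver RNA comes mainly from hepatocytes, so in these bulk samples fewer cells of a type and less RNA per cell cannot be told apart.

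Total counts were between 18994654 and 22920056 reads per library, where a gene with 0 reads could hold up to 3 by counting error. All counting errors given here treat each read as independent. Mates of a pair were counted separately, so the true counting error can be larger. Levels are given as CPM, which are counts scaled to library size with edgeR's TMM factors (0.964 to 1.03). Replicates differed by more than sampling noise in every pair. Of 12559 genes tested with edgeR's quasi-likelihood test, 930 had an adjusted p under 0.05 (Benjamini-Hochberg). This number was 1943 without FGF19 replicate 3 and between 343 and 600 without any 1 of the other 5 libraries. The tissue label was checked against 8 hepatocyte genes. They summed to between 86794 and 89308 CPM in vehicle libraries and between 82445 and 85863 CPM in FGF19 libraries, without overlap. The genes that define Kupffer cells, Clec4f, Timd4, Vsig4 and Cd5l, had at least 75 reads in every library.

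The 10 genes did not move as a block. Marco was 4.91-fold higher in FGF19 livers than in vehicle livers, Cd14 was 2.66-fold higher and Cd68 was 1.58-fold higher. Cd163 was 2.14-fold lower and Vsig4 was 1.46-fold lower. In these 5 genes the groups did not overlap, with all 3 FGF19 libraries above all 3 vehicle libraries for Marco, Cd14 and Cd68 and below them for Cd163 and Vsig4. In Clec4f, Cd5l, Lyz2, Csf1r and Timd4 the groups overlapped.

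**Figure D1:**
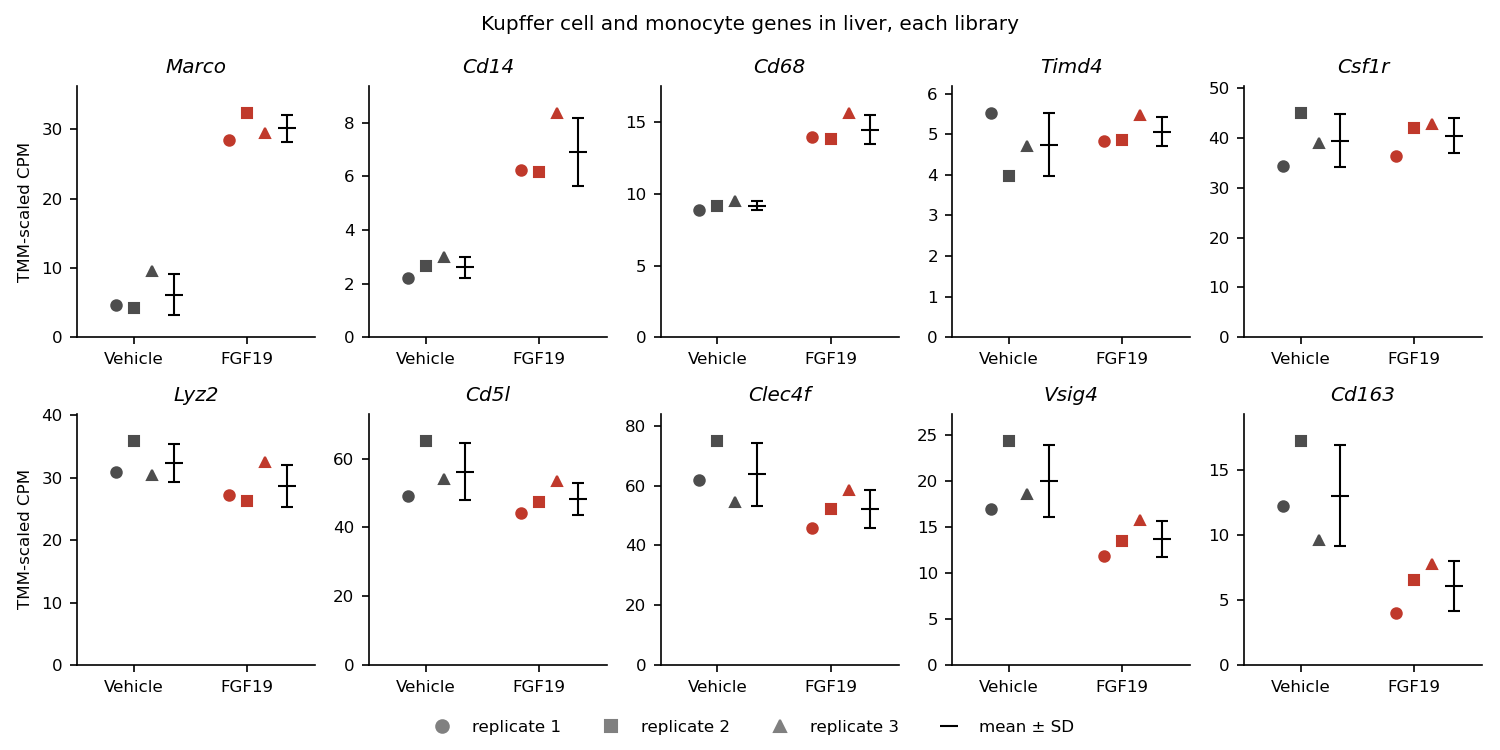
Level of each of the 10 genes in each library (y axes, TMM-scaled CPM, each starting at 0) by group, with marker shapes for replicates 1, 2 and 3 and the mean ± SD beside each group (n = 3). Marco lies between 4.24 and 9.53 CPM in the vehicle libraries and between 28.5 and 32.4 CPM in the FGF19 libraries, and the highest library of Clec4f, Cd5l, Lyz2, Csf1r, Vsig4 and Cd163 is vehicle replicate 2.

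At an adjusted p under 0.05, 3 of the 10 genes (Marco, Cd14 and Cd68) were called higher and 1 (Cd163) was called lower, where 4.56% of all genes tested were called higher and 2.84% were called lower. At p under 0.01, the threshold of the study, 3 were higher and 2 were lower (Cd163 and Vsig4), against 6.2% and 4.98% of all genes tested. The groups did not overlap in 3 genes that were higher and 2 that were lower, against 14.5% and 13.8% of all genes tested. Nothing is read from these counts, because the same comparison was in view when the genes were chosen. The median log2 fold change of the 10 genes was -0.07, and that of all genes tested was -0.00076.

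The upstream sequences of Marco, Cd68, Cd163 and Vsig4 are shown because these genes include the largest difference upward and both differences downward, with Cd68 between them. Of the 10 genes, 8 matched an entry of the RefSeq promoter table (GRCm38.p6) by symbol, and Cd14 and Csf1r did not. Each sequence is the 250 bases before the start site, 5′ to 3′ on the strand of the gene, and capitals mark matches to 1 of 6 motifs of factors known in myeloid cells, searched on both strands. The motifs were GAGGAA for PU.1, TGANTCA for AP-1, TTGCNNAA for C/EBP, GGGNNTTTC for NF-kappaB, TTCNNNGAA for STAT and TGCTGA for MAF, and no match overlapped another. In mm9, the build of the counts, these bases matched 1 place each, found in the NCBIM37 genome: chr1:122401602-122401851 on the minus strand for Marco, chr11:69479673-69479922 on the minus strand for Cd68, chr6:124254419-124254668 on the plus strand for Cd163 and chrX:93488778-93489027 on the minus strand for Vsig4.
Marco: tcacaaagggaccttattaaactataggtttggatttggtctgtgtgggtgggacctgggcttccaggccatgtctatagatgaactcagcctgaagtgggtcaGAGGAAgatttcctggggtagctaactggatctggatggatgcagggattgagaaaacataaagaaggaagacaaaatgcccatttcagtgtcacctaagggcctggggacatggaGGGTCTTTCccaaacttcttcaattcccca
Cd68: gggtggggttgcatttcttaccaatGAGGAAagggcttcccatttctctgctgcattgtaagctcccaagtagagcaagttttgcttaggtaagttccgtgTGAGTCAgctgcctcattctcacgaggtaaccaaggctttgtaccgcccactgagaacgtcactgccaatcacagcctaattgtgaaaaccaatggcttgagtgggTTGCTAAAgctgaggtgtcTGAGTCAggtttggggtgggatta
Cd163: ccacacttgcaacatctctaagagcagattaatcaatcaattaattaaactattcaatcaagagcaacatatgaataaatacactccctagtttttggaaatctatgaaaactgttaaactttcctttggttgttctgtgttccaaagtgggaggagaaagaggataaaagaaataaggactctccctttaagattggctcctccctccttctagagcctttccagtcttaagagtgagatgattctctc
Vsig4: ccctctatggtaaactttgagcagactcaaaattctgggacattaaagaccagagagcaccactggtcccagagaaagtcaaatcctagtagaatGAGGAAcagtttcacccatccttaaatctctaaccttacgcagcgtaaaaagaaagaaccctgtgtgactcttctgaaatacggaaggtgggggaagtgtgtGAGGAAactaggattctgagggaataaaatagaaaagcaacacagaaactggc

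The letters of these windows differed between the genes that were higher. The Marco window held 1 PU.1 match, at bases 146 to 141 before the start, and 1 NF-kappaB match (GGGTCTTTC) at bases 30 to 22. The Cd68 window held 1 PU.1 match, 2 AP-1 matches (TGAGTCA, at bases 149 to 143 and 24 to 18) and 1 C/EBP match (TTGCTAAA, at bases 43 to 36). The genes that were lower also differed, since the Vsig4 window held 2 PU.1 matches, at bases 155 to 150 and 53 to 48, and the Cd163 window held no match to any of the 6 motifs. The RefSeq start of Marco lies 60 bases inside the gene model used for the counts, so the NF-kappaB match of Marco lies inside that gene model. The RefSeq start of Cd68 lies 108 bases before its gene model. Over the 8 genes with a sequence, GAGGAA was found in 4 (Marco, Cd68, Vsig4 and Cd5l), against 23.3% of 32851 promoter windows of the same length. TGCTGA was found in another 4 (Cd5l, Clec4f, Lyz2 and Timd4, with Cd5l in both sets), against 16.1%. TGANTCA and TTGCNNAA were found in Cd68 alone (6.7% and 9.6% of windows), GGGNNTTTC in Marco alone (3.7%), and TTCNNNGAA in none of the 8 (7.0%). A match is only a run of letters and not a site shown to be bound, and no match says only that these letters are not in the window.

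Marco encodes a class A scavenger receptor with a collagen-like stalk, which binds bacteria and particles. It lies on mm9 chromosome 1 (122371115 to 122401661, minus strand), with 17 exons. Marco had 4.67, 4.24 and 9.53 CPM in vehicle replicates 1, 2 and 3 (98, 80 and 192 reads) and 28.5, 32.4 and 29.6 CPM in FGF19 replicates 1, 2 and 3 (613, 705 and 653 reads). Vehicle replicate 3 was the high library of its group, and the lowest FGF19 library was still far above it. The mean rose from 6.14 ± 2.94 to 30.1 ± 2.01 CPM (SD, n = 3 per group), with a log2 fold change of 2.29 (SE 0.256, 95% interval 1.72 to 2.87). The vehicle libraries varied with a coefficient of variation of 47.8%, where counting error alone gives 9.01%, and the FGF19 libraries with one of 6.66%. The log2 fold change was 2.76 without vehicle replicate 3 and between 2.09 and 2.33 without any 1 of the other 5 libraries.

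Cd68 encodes macrosialin, a glycoprotein of late endosomes and lysosomes that is used as a general macrophage marker. Its gene model is on mm9 chromosome 11 (69477873 to 69479564, minus strand), with 6 exons. Cd68 had 8.86, 9.16 and 9.53 CPM in vehicle replicates 1, 2 and 3 and 13.95, 13.87 and 15.7 CPM in FGF19 replicates 1, 2 and 3. All FGF19 libraries were higher than all vehicle libraries, with a gap much wider than the spread inside either group. The mean rose from 9.18 ± 0.334 to 14.5 ± 1.01 CPM (SD, n = 3 per group), a log2 fold change of 0.66 (SE 0.114, 95% interval 0.40 to 0.91). Its vehicle libraries were the closest together of the 10 genes, at 3.64%, below the 7.38% that counting error gives for these reads. No library left out moved the log2 fold change outside 0.60 to 0.70.

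Cd163 encodes a scavenger receptor with cysteine-rich domains, through which macrophages take up haemoglobin bound to haptoglobin. The gene is on mm9 chromosome 6 (124254669 to 124280545, plus strand), with 34 exons counted in the files. Cd163 had 12.2, 17.3 and 9.63 CPM in vehicle replicates 1, 2 and 3 (257, 326 and 194 reads) and 3.999, 6.57 and 7.74 CPM in FGF19 replicates 1, 2 and 3 (86, 143 and 171 reads). The groups did not overlap, but the lowest vehicle library and the highest FGF19 library were close. The mean fell from 13.04 ± 3.88 to 6.10 ± 1.91 CPM (SD, n = 3 per group), a log2 fold change of -1.09 (SE 0.265, 95% interval -1.69 to -0.50). Both groups were spread widely, with coefficients of variation of 29.8% and 31.3% where counting error gives 6.21% and 8.66%. The call at an adjusted p under 0.05 was lost without FGF19 replicate 1 (log2 fold change -0.86), FGF19 replicate 2 (-1.14), vehicle replicate 1 (-1.14) or vehicle replicate 2 (-0.84).

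Cd14 encodes the membrane-anchored coreceptor that takes LPS from LPS-binding protein and hands it to TLR4. It lies on mm9 chromosome 18 (36884721 to 36886308, minus strand), with 2 exons. Cd14 had 2.19, 2.65 and 2.98 CPM in vehicle replicates 1, 2 and 3 (46, 50 and 60 reads) and 6.23, 6.16 and 8.37 CPM in FGF19 replicates 1, 2 and 3 (134, 134 and 185 reads). Every FGF19 library was above the highest vehicle library, and FGF19 replicate 3 was the highest of all. The mean rose from 2.61 ± 0.395 to 6.92 ± 1.26 CPM (SD, n = 3 per group), a log2 fold change of 1.41 (SE 0.194, 95% interval 0.97 to 1.84). Its vehicle libraries held the fewest reads of the 10 genes. The lowest count of 46 has an exact Poisson 95% interval of 33.7 to 61.4. This interval covers counting error only and takes reads as independent, so it can be too narrow. The log2 fold change stayed between 1.25 and 1.52 when any 1 library was left out.

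Vsig4 encodes CRIg, a complement receptor of Kupffer cells that binds C3b and iC3b on opsonised particles. Its 7 exons are on mm9 chromosome X (93442542 to 93488777, minus strand). Vsig4 had 17.0, 24.4 and 18.7 CPM in vehicle replicates 1, 2 and 3 and 11.9, 13.5 and 15.8 CPM in FGF19 replicates 1, 2 and 3. Vehicle replicate 2 was the high library, and the other 2 vehicle libraries lay just above FGF19 replicate 3. The means were 20.01 ± 3.91 and 13.7 ± 1.93 CPM (SD, n = 3 per group), a log2 fold change of -0.54 (SE 0.160, 95% interval -0.90 to -0.18). Vsig4 was past p under 0.01 and not past the adjusted threshold, which it passed with DESeq2, with the likelihood ratio test and without FGF19 replicate 3 (-0.65). The value nearest 0 was -0.38, without vehicle replicate 2.

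Timd4 encodes a receptor for phosphatidylserine on dying cells and marks long-lived resident Kupffer cells. The gene is on mm9 chromosome 11 (46624301 to 46657835, plus strand), with 9 exons. Timd4 had 5.53, 3.97 and 4.71 CPM in vehicle replicates 1, 2 and 3 and 4.84, 4.87 and 5.48 CPM in FGF19 replicates 1, 2 and 3. The FGF19 libraries fell inside the range of the vehicle libraries, whose highest was replicate 1 and lowest replicate 2. The means were 4.74 ± 0.777 and 5.06 ± 0.3602 CPM (SD, n = 3 per group), and the log2 fold change of 0.09 had an SE of 0.168 and a 95% interval of -0.28 to 0.47. It was -0.018 without vehicle replicate 2. The lowest count, 75 reads in that library, has an exact Poisson 95% interval of 59.0 to 94.0, with reads taken as independent.

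Clec4f encodes a C-type lectin that in mice marks Kupffer cells. Its gene model is on mm9 chromosome 6 (83594536 to 83606110, minus strand), with 7 exons. Clec4f had 62.0, 75.1 and 54.4 CPM in vehicle replicates 1, 2 and 3 and 45.9, 52.2 and 58.6 CPM in FGF19 replicates 1, 2 and 3. FGF19 replicate 3 was higher than vehicle replicate 3, so the groups overlapped by that pair. The means were 63.8 ± 10.5 and 52.2 ± 6.31 CPM (SD, n = 3 per group), with a log2 fold change of -0.29 (SE 0.133, 95% interval -0.59 to 0.01).

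Cd5l encodes AIM, a protein secreted by tissue macrophages. Its 6 exons are on mm9 chromosome 3 (87161803 to 87174996, plus strand). Cd5l had 49.0, 65.2 and 54.1 CPM in vehicle replicates 1, 2 and 3 and 44.3, 47.3 and 53.4 CPM in FGF19 replicates 1, 2 and 3. Only FGF19 replicate 3 reached into the vehicle range, above vehicle replicate 1. The means were 56.1 ± 8.28 and 48.3 ± 4.63 CPM (SD, n = 3 per group), with a log2 fold change of -0.22 (SE 0.121, 95% interval -0.49 to 0.06).

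Lyz2 encodes lysozyme of the macrophage and granulocyte type, which cuts bacterial cell walls. The gene is on mm9 chromosome 10 (116714597 to 116719328, minus strand), with 4 exons. Lyz2 had 30.9, 35.96 and 30.4 CPM in vehicle replicates 1, 2 and 3 and 27.2, 26.3 and 32.6 CPM in FGF19 replicates 1, 2 and 3. FGF19 replicate 3 was above vehicle replicates 1 and 3, so the groups overlapped. The means were 32.4 ± 3.08 and 28.7 ± 3.41 CPM (SD, n = 3 per group), with a log2 fold change of -0.18 (SE 0.115, 95% interval -0.43 to 0.08). Reads that align equally well to Lyz2 and to its close copy Lyz1 were left out by the counting, and Lyz1 itself had at most 8 reads in any library, so the Lyz2 level is a lower estimate by an unknown amount.

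Csf1r encodes the receptor for CSF1 and IL-34, on which monocytes and macrophages depend. It lies on mm9 chromosome 18 (61265226 to 61290793, plus strand), with 22 exons. Csf1r had 34.4, 45.1 and 39.0 CPM in vehicle replicates 1, 2 and 3 and 36.5, 42.0 and 42.9 CPM in FGF19 replicates 1, 2 and 3. The FGF19 libraries all fell inside the vehicle range. The means were 39.5 ± 5.34 and 40.5 ± 3.50 CPM (SD, n = 3 per group), and the log2 fold change was 0.04 (SE 0.117, 95% interval -0.23 to 0.30). This interval leaves room for a difference of either sign, and the fitted value was -0.0047 without FGF19 replicate 3 and -0.055 without vehicle replicate 1.

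**Figure D2:**
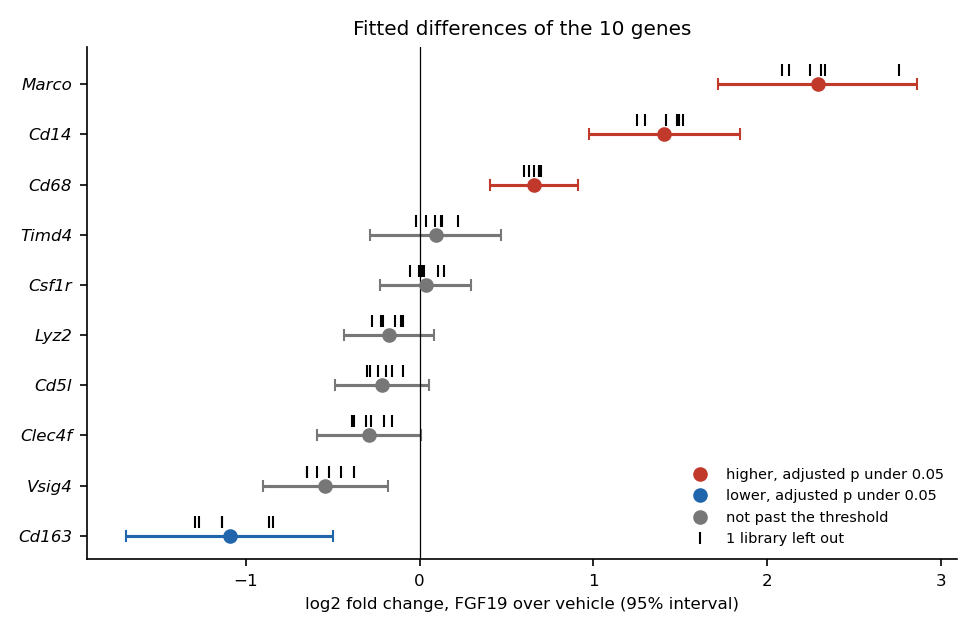
Log2 fold change of each gene, FGF19 over vehicle (x axis), from edgeR's quasi-likelihood fit of 3 against 3 libraries, with horizontal bars for the 95% interval, short ticks for the 6 fits that each leave out 1 library, and colour for calls at an adjusted p under 0.05. The values run from 2.29 for Marco to -1.09 for Cd163, and ticks lie on both sides of 0 only for Timd4 and Csf1r.

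The libraries of a group shared some of their order across genes. Vehicle replicate 2 was the highest vehicle library for Clec4f, Vsig4, Cd163, Cd5l, Lyz2 and Csf1r, and was the lowest for Marco and Timd4. Among FGF19 libraries, replicate 3 was the highest for 9 of the 10 genes, all but Marco. Summed over the 10 genes, the vehicle libraries had 226.7, 283 and 233 CPM and the FGF19 libraries 223.3, 245.1 and 270 CPM. The summed level overlapped between the groups although its makeup differed.

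Levels of different genes were compared as RPKM, which are CPM per kilobase of exon, with the exon length of the files. In vehicle livers the order of mean RPKM was Lyz2 (30.7), Cd5l (27.5), Clec4f (26.6), Vsig4 (13.97), Csf1r (10.2), Cd68 (9.11), Marco (3.10), Cd163 (2.90), Timd4 (2.18) and Cd14 (1.74). The ranges of neighbours in this order were apart between Clec4f and Vsig4, between Vsig4 and Csf1r and between Cd68 and Marco, and the other neighbours were not separated by their spread. Lyz2, Cd5l and Clec4f therefore formed a top tier, and Marco, Cd163, Timd4 and Cd14 a bottom tier. In it Marco, Cd163 and Timd4 overlapped, and Cd14 (1.46 to 1.99 RPKM) overlapped with Timd4 and lay below every library of Marco and Cd163. In FGF19 livers the order was Lyz2 (27.1), Cd5l (23.7), Clec4f (21.8), Marco (15.2), Cd68 (14.4), Csf1r (10.4), Vsig4 (9.58), Cd14 (4.62), Timd4 (2.33) and Cd163 (1.36). Here neighbours were apart between Clec4f and Marco, Cd68 and Csf1r, Vsig4 and Cd14, Cd14 and Timd4, and Timd4 and Cd163. The same 3 genes led in both groups, Marco went from place 7 to place 4, Vsig4 from place 4 to place 7, Cd14 from place 10 to place 8 and Cd163 from place 8 to place 10. Of the summed RPKM of the 10 genes, Marco made up 2.47% in vehicle livers and 11.7% in FGF19 livers, while Cd163 made up 2.25% and 1.03%.

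**Figure D3:**
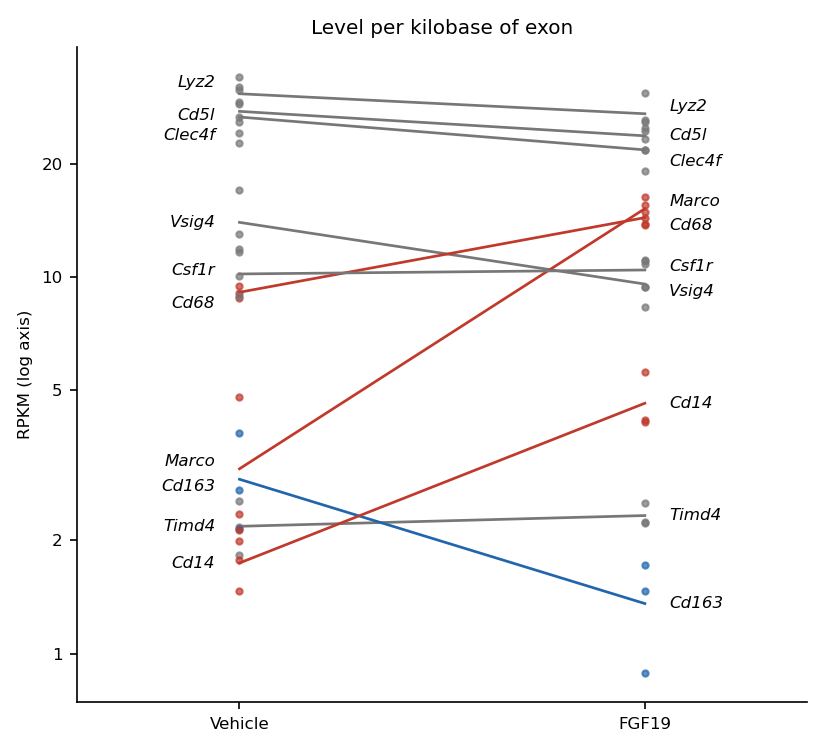
RPKM of each gene (y axis, log scale) in vehicle and FGF19 livers, with points for the 6 libraries, lines joining the group means, and colour for calls at an adjusted p under 0.05. The line of Marco climbs from 3.10 to 15.2 RPKM past those of Vsig4 and Csf1r, and that of Cd163 drops from 2.90 to 1.36 RPKM to the lowest place.

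Reads of the other 9 genes were also set against the Csf1r reads of the same library, a ratio in which library size and TMM scaling cancel. Csf1r was taken because monocytes and Kupffer cells both carry it and its own groups overlapped, with that overlap already known. Per 100 Csf1r reads, Marco had 13.55, 9.40 and 24.4 reads in vehicle replicates 1, 2 and 3 and 78.2, 77.1 and 68.8 reads in FGF19 replicates 1, 2 and 3. Cd68 had 20.3 to 25.7 in vehicle libraries and 33.0 to 38.3 in FGF19 libraries, and Cd14 had 5.88 to 7.63 and 14.7 to 19.5. These 3 genes stayed higher on this scale. Cd163 had 24.7 to 38.3 reads per 100 Csf1r reads in vehicle libraries and 10.97 to 18.0 in FGF19 libraries, and Vsig4 had 47.8 to 54.2 and 32.2 to 36.7. The genes whose CPM overlapped between groups were lower on this scale in 3 cases, with 139.6 to 179.9 and 124.3 to 136.4 for Clec4f, 138.7 to 144.7 and 112.7 to 124.2 for Cd5l, and 78.0 to 89.6 and 62.6 to 75.9 for Lyz2. Timd4, with 8.81 to 16.04 and 11.6 to 13.3, overlapped on both scales. Of all genes tested, 7.99% were above and 8.89% below without overlap on the scale of Csf1r reads. As the genes and their denominator were chosen with these values known, these counts are descriptions.

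**Figure D4:**
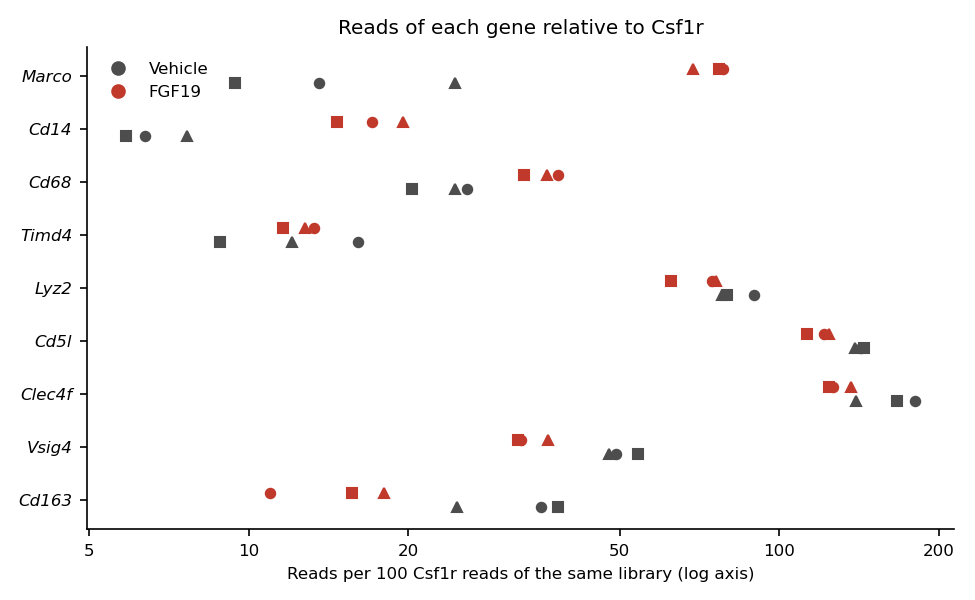
Reads of 9 genes per 100 Csf1r reads of the same library (x axis, log scale), with colour for the group and circles, squares and triangles for replicates 1, 2 and 3. Marco, Cd14 and Cd68 lie to the right in FGF19 libraries, Cd163, Vsig4, Clec4f, Cd5l and Lyz2 lie to the left, and Timd4 overlaps.

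Genes of opposite direction were also set against each other within a library. Marco had 0.381, 0.245 and 0.990 reads per Cd163 read in vehicle replicates 1, 2 and 3 and 7.13, 4.93 and 3.82 in FGF19 replicates 1, 2 and 3. Every vehicle library thus had fewer Marco than Cd163 reads and every FGF19 library had more. Cd68 had 0.523, 0.375 and 0.511 reads per Vsig4 read in vehicle libraries and 1.17, 1.03 and 0.994 in FGF19 libraries, so these genes had about equal reads after FGF19.

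The partners of these receptors were read from lists of genes that work beside them, with edgeR's quasi-likelihood test and Benjamini-Hochberg adjustment over all genes tested, of which 4.56% were called higher and 2.84% lower. Beside Cd14, 2 of the 12 LPS recognition genes tested rose and none was called lower at an adjusted p under 0.05 (median log2 fold change 0.42), and at p under 0.01 there were 4 higher and 1 lower. The lower gene, named after its values were seen, was Ly86 (-0.79, adjusted p = 0.0645), whose FGF19 libraries all lay below the vehicle libraries. Lbp, whose product carries LPS to CD14, rose from 228.5 ± 23.9 to 420.9 ± 19.7 CPM (n = 3 per group, log2 fold change 0.88, adjusted p = 0.00108), and Irak3, an inhibitor of signalling below TLR4, rose by 2.70 (adjusted p = 0.000252). Tlr4 and its partner Ly96, which complete the LPS receptor with Cd14, had log2 fold changes of 0.41 (adjusted p = 0.493) and 0.50 (adjusted p = 0.153). Beside Cd163, 3 of 10 haem and haemoglobin clearance genes rose (median 0.16), which were Hp, the haptoglobin that Cd163 binds (1.24, adjusted p = 0.000236), the haem carrier Hpx (1.33, adjusted p = 0.000239) and the haem-degrading Hmox1 (0.71, adjusted p = 0.0166, call lost without FGF19 replicate 2, vehicle replicate 1 or vehicle replicate 2, at 0.59 to 0.69). Beside Vsig4, 5 of 9 complement genes rose (median 0.64), which were Itgam, Itgb2, Cfb, C3 and C5ar1, the last named only because it was called. Itgam was also on the monocyte list, so its call counts in both. C5ar1 had few reads, with 6, 16 and 9 in vehicle replicates 1, 2 and 3 and 32, 30 and 31 in FGF19 replicates 1, 2 and 3. C3, the source of the fragments that Vsig4 binds, had a log2 fold change of 0.58 (adjusted p = 0.0280), and its call was lost when any library except FGF19 replicate 3 was left out, at 0.51 to 0.64. Beside Csf1r, none of 8 genes passed, with 0.17 for Csf1 (adjusted p = 0.604) and 0.03 for Il34 (adjusted p = 0.964), the 2 ligands. Beside Timd4, 1 of 12 apoptotic cell uptake genes rose, Cd300lf (1.77, adjusted p = 0.0153, median of the list 0.14), and Mertk (0.10), Axl (0.09) and Gas6 (0.34) had adjusted p of 0.707, 0.670 and 0.0680, with Gas6 called by the likelihood ratio test (adjusted p = 0.0438) and without FGF19 replicate 3 (0.36, adjusted p = 0.0401). Among the other genes of this paragraph, the call of Cd300lf was lost without vehicle replicate 1 (1.49), that of Itgb2 without FGF19 replicate 2 (0.72) and that of C5ar1 without any 1 library except vehicle replicate 2 (1.14 to 1.47). Across all 16 lists, 21 of 151 genes tested were called higher and 2 lower (30 and 9 with the likelihood ratio test), and the lists were set up with earlier results of these data known. Whole liver RNA comes mainly from hepatocytes, so it cannot be told which cells gave the reads of these partner genes.

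Lists of cell type markers were read in the same way. Of all genes tested, 4.56% were called higher and 2.84% lower at an adjusted p under 0.05. At p under 0.01 the shares were 6.2% and 4.98%, and 14.5% and 13.8% were higher and lower without overlap between groups. Of 19 other Kupffer cell genes, 3 rose (Msr1, Hmox1 and Il18bp) and none was called lower at an adjusted p under 0.05 (median 0.09, summed level 712 to 801 CPM in vehicle and 656 to 811 CPM in FGF19 libraries), and the largest rise was that of Msr1 (1.10, adjusted p = 0.00399), a class A scavenger receptor like Marco. At p under 0.01 there were 3 higher and 2 lower, the latter being Slc40a1 (-0.56, adjusted p = 0.0551) and Mrc1 (-0.30, adjusted p = 0.0560), which were named after their values were seen and did not overlap between groups. The complement subunits C1qa (-0.11), C1qb (0.18) and C1qc (-0.03), abundant in Kupffer cells, had adjusted p of 0.674, 0.462 and 0.900, and Emr1 (F4/80) had 0.36 (adjusted p = 0.155) and was called without FGF19 replicate 3 (0.46, adjusted p = 0.0397). Of 22 general myeloid and macrophage genes, 3 rose (Fcer1g, Mpeg1 and Cybb; median 0.42), with summed levels of 368 to 444 and 465 to 498 CPM. Sfpi1, which encodes PU.1, had 0.47 (adjusted p = 0.0728) and was called by the likelihood ratio test (adjusted p = 0.0411). Beside Marco, Cd14 and Cd68, markers of monocytes and neutrophils were higher too. The monocyte list summed to between 11.1 and 14.8 CPM in vehicle libraries and between 20.5 and 26.2 CPM in FGF19 libraries, with 1 of 8 genes tested rising (Itgam, 2.85, adjusted p = 0.00101) and Fcnb at 0 throughout. The neutrophil list summed to between 3.62 and 4.71 CPM and between 8.10 and 11.2 CPM, with 1 of 4 genes tested rising (S100a9, 2.16, adjusted p = 0.0292, call lost without FGF19 replicate 1 or 2 or vehicle replicate 1 or 2, at 1.81 to 2.33). The part of these cells in the levels of Marco, Cd14 and Cd68 was not tested. Beside Cd163 and Vsig4, 1 of 10 stellate cell genes fell (Colec11, -0.75, adjusted p = 0.00878) and 1 of 13 sinusoidal endothelial genes rose (Cdh5, 0.43, adjusted p = 0.0275), the call of Cdh5 being lost when any library except FGF19 replicate 3 was left out, at 0.38 to 0.45. The endothelial list had a median of -0.01 and at p under 0.01 held 2 lower genes, Clec4g (-0.38, adjusted p = 0.0736) and Flt4 (-0.28, adjusted p = 0.0755), named after their values were seen. Of the lymphocyte (7 tested) and cholangiocyte (5 tested) genes none passed, and of the 7 erythroid genes only Alas2 was tested (-0.51, adjusted p = 0.0645, past p under 0.01), with Hba-a1, Hba-a2, Hbb-b1 and Hbb-b2 at 0 in all libraries, where reads with several alignments were not counted. Of 20 macrophage activation genes only 9 were tested, and Tnf, Il6, Il10 and Nos2 were among those too low to test. Of the 9, 3 rose (Il1rn, Fpr2 and Slc11a1, median 0.43), with 1.66 for Il1rn (adjusted p = 0.00171). Il1b had 0.02 (adjusted p = 0.984). The 1 gene that was lower without overlap was Clec7a (-0.37, adjusted p = 0.285). Il1b and Clec7a were named after their values were seen. Leaving out 1 library ended the call of Mpeg1 in 1 fit (without vehicle replicate 3, 0.70), those of Cybb (0.65 to 0.68) and Fpr2 (1.69 to 1.76) in 3 fits, that of Il18bp in 4 (0.51 to 0.62) and that of Slc11a1 in 5 (0.53 to 0.83). Slc11a1 was also not called without TMM scaling (0.72, adjusted p = 0.0506).

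**Figure D5:**
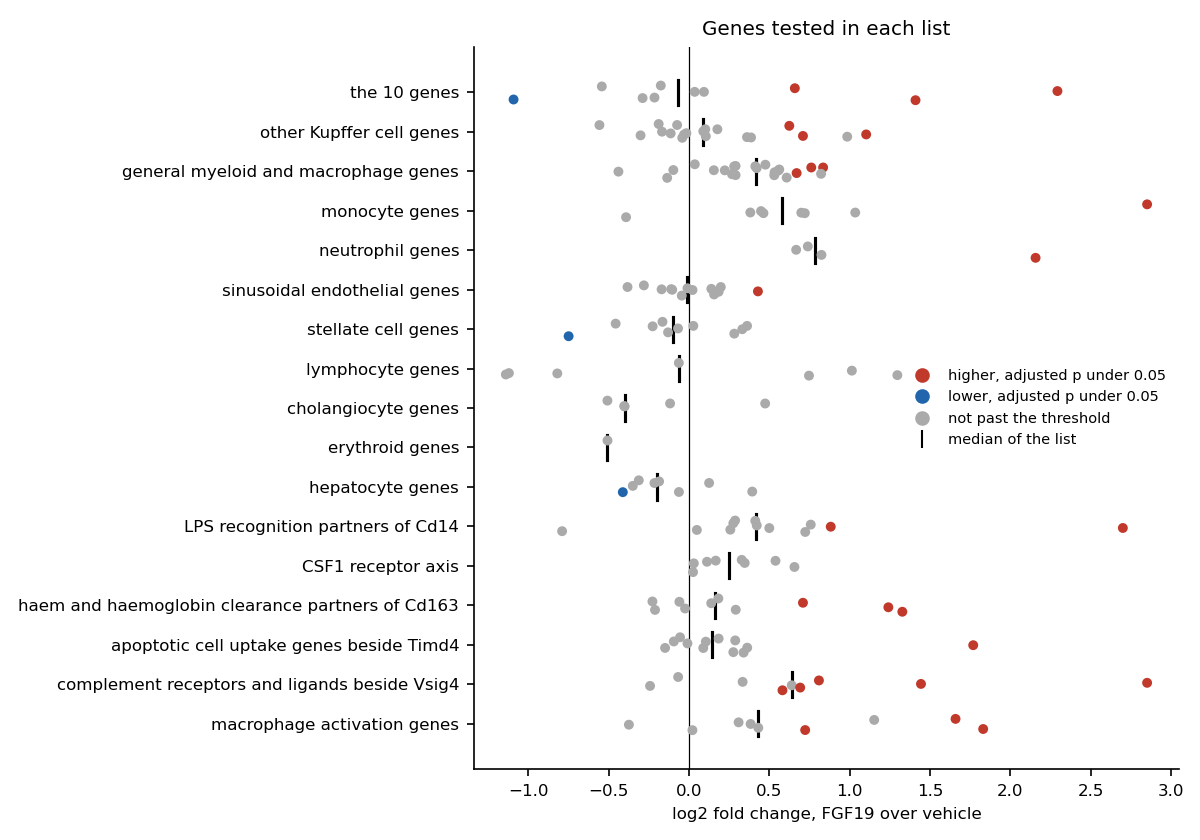
Log2 fold change, FGF19 over vehicle (x axis), of each gene tested in the 10 genes and in the 16 lists of partner genes and cell type markers (rows), with a vertical bar for the median of each list and colour for calls at an adjusted p under 0.05. The 10 genes run from -1.09 to 2.29 around a median of -0.07, and the monocyte and neutrophil medians lie at 0.58 and 0.78.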

How the data were processed

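Liver RNA-seq libraries of 3 vehicle and 3 FGF19 mice were used, grouped by the sample labels. The authors deposited raw read counts per gene, made with featureCounts 1.5.2 on mm9 gene models. The submitters' processing notes also name Trimmomatic 0.36, a read trimmer, and STAR 2.5.3a, an aligner. Per the file headers, the counting ignored strand, counted mates separately and dropped reads with more than 1 alignment, so genes with close copies (Lyz2 and Lyz1) can be undercounted and antisense reads cannot be told apart. A second deposited table, with the authors' log2 fold changes, log CPM, p-values and FDR of the same comparison, was not used.

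In edgeR 4.0.16 under R 4.3.3, filterByExpr kept 12559 of 23284 genes, which were scaled by TMM and compared with the quasi-likelihood test without covariates, with p-values adjusted by Benjamini-Hochberg over the tested genes. The scripts were tested on simulated data. Calls are at an adjusted p under 0.05 and at p under 0.01, the threshold of the study. The precision is set by depth (as few as 46 reads for Cd14 in a library) and by 3 mice per group.

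The 10 genes and the 16 lists of partner and marker genes were chosen with earlier results of these data known. List genes were named by rule: up to 3 rises and 3 falls per list among genes with an adjusted p under 0.05 and a mean of at least 1 CPM, and listed partner genes however they moved. The values of 1 gene are not reported here. Alternatives were DESeq2 1.42.0, no TMM, no filter, at least 1 CPM in every library, limma-voom (limma 3.58.1), the likelihood ratio test, the replicate number as a block, and each library left out in turn.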

Additional observations from a re-analysis of the deposited data

How the results depend on the processing

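Marco, Cd14 and Cd68 stayed past the adjusted threshold in all 13 alternatives, which reuse the libraries the genes were chosen on, and between 3 and 5 of the 10 genes were called. Cd163 was not called in 4 fits without 1 library, and Vsig4 was called with DESeq2, with the likelihood ratio test and without FGF19 replicate 3. The genes called number 930 of all genes and 23 of the list genes. The likelihood ratio test gave 39 list genes, 30 higher and 9 lower, and fits without 1 library gave 13 to 49 list genes and 343 to 1943 of all genes. The replicate numbers did not pair the samples (deviations of same-numbered samples had r of -0.05, -0.23 and -0.21), and the fit with the replicate block called 534 genes in all, 370 higher and 164 lower, and the same 4 of the 10 genes. Of the list genes named, C3, C5ar1, Cdh5 and Slc11a1 were not called in it. Log2 fold changes near 0 turned sign when 1 library was left out, over a range of -0.018 (without vehicle replicate 2) to 0.22 for Timd4, -0.055 to 0.14 for Csf1r (-0.055 without vehicle replicate 1 and -0.0047 without FGF19 replicate 3), -0.16 to 0.27 for Il34 (-0.16 without FGF19 replicate 2, -0.14 without vehicle replicate 3 and -0.017 without vehicle replicate 1) and -0.11 to 0.036 for C1qc (0.034 without FGF19 replicate 1 and 0.036 without vehicle replicate 2). The cause was not tested. With the stricter filter on low counts, Tlr4, C5ar1, Cd300lf, Fpr2, Irak3, Itgam and S100a9 were not tested. Cd14 and Timd4, with 46 and 75 reads in their lowest libraries, are the most limited by depth among the 10 genes.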
